A study of Homo sapiens with 6 samples.

Results

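The peaks described here are m6A peaks that the authors' annotation placed in a 5' UTR and that covered 2 or more separate exon blocks, so that the peak ran across at least 1 splice junction. They were taken from the list of immunoprecipitated over input peaks and from the list of peaks compared between conditions, wherever the annotation read 5' UTR and the block list held 2 or more entries. In the peak list 5502 of 42634 peaks met this description (12.9%), and they were assigned to 4445 genes. In the differential list 3095 of 19983 peaks met it, in 2663 genes.

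N6-methyladenosine (m6A) is a methyl mark that a nuclear complex around METTL3 and METTL14 places on adenosines of newly made RNA, mostly within a GGAC-like core. The mark is read by YTH domain proteins and can be removed by ALKBH5 and FTO. Most of it lies near stop codons and in 3' UTRs, and 5' UTR m6A is known for its part in cap-independent translation under stress. The antibody used for such maps also binds m6Am, a related mark on the first transcribed base next to the cap when that base is A, so 5' UTR peaks can hold both marks.

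The RNA came from Kasumi-1 cells, a line established from acute myeloblastic leukaemia that carries the RUNX1-RUNX1T1 fusion, with the genotype labelled WT. All 6 libraries came from cells exposed for 24 h to 100 uM CoCl2, which stabilises HIF proteins as low oxygen does, together with 10 nM echinomycin, a DNA-binding antibiotic that blocks HIF-1 from its target sites. The groups were 3 immunoprecipitated (IP) libraries, made with an anti-m6A antibody from fragmented poly(A) RNA, and 3 input libraries, described as biological replicates. The differential list set this combined treatment against CoCl2 alone, so both of its arms had received CoCl2. Libraries with CoCl2 as the only agent were not analysed here.

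The letters at the transcription start of member genes are shown first, because the motif that m6A writers prefer can be looked for there. RefSeq promoter sequences (GRCh38.p14) were matched by symbol, and 2229 of 4436 member gene symbols had a single listed start. The most enriched members whose genomic span, gaps included, covered the assigned start were taken in genes at 5 FPKM or more. Those whose first 50 transcribed bases held GGAC include CPSF7, GNB1, CNOT6, CCDC47, POU4F1, MYLIP, KLHDC3 and WIPF2. FPKM is a fragment count scaled to transcript length and library size. Each run is 30 bases, 5' to 3' on the strand of the gene, with every GGAC in capitals:
CPSF7: tcgggcctagtccGGACtcgccgccgccgc
GNB1: ccgatggctggaggcgtctgaggggcGGAC
CNOT6: gagGGACggcggccgccgccatgatgcttg
CCDC47: gtaacGGACggcggaggctacgtgaagaga
POU4F1: tgtcggagaagcgGGACcgcgaggccggcg
MYLIP: gcgccaccgcggaGGACaggggcagctggc
KLHDC3: tttatctcgttggGGACtaaggcgtcggtt
WIPF2: attttgttcgcGGACgctggGGACggtggg

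These runs lay on GRCh38.p14 at chr11:61429927-61429956 on the minus strand for CPSF7, a subunit of the cleavage factor that acts in 3' end formation, and at chr1:1891038-1891067 on the minus strand for GNB1, a G protein beta subunit. The run of CNOT6, a deadenylase of the CCR4-NOT complex, lay at chr5:180494379-180494408 on the plus strand, and that of CCDC47 at chr17:63773568-63773597 on the minus strand. The POU4F1 run, from a POU-domain transcription factor known for its high level in leukaemia with this fusion, lay at chr13:78603518-78603547 on the minus strand. The runs of MYLIP, KLHDC3 and WIPF2 lay on the plus strand at chr6:16129106-16129135, chr6:43014250-43014279 and chr17:40219304-40219333. WIPF2 held 2 copies of the motif in its run. The peaks themselves had fold enrichments of 126 in CPSF7, 117 in GNB1, 50.8 in CNOT6, 44.5 in CCDC47, 39.5 in POU4F1, 38.6 in MYLIP, 37.3 in KLHDC3 and 36.9 in WIPF2. The sources used here name no genome build for the peak lists, so whether each peak covered the RefSeq start was not tested.

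A second set shows the same motif at the starts of listed genes whose member changed between conditions:
TFRC: gggtggcggctcgGGACggaGGACgcgcta
HNRNPU: gaGGACgttgcgtgctcgctcgcgccaggc
SRSF3: ccgccatttcgtGGACgccgggtgagtgag
SRSF6: attgtgtggctGGACtcggccgcccctgtg
ALKBH5: gagcggcgctggcGGACgtcgggctggctg
EP300: gagaaggaggaGGACagcgccgaggaggaa

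The first 4 were among the members with a higher value in the combined treatment and the last 2, ALKBH5 and EP300, among those with a lower one. The runs lay on GRCh38.p14 at chr3:196082045-196082074 (minus strand) for TFRC, chr1:244864514-244864543 (minus) for HNRNPU, chr6:36594362-36594391 (plus) for SRSF3, chr20:43457896-43457925 (plus) for SRSF6, chr17:18183843-18183872 (plus) for ALKBH5 and chr22:41092592-41092621 (plus) for EP300. Both directions of change thus occurred in genes with the same 4 letters near a RefSeq start. Whether a changed member itself held the motif was not tested. The HNRNPU member of the differential list, at chr1:244863061-244864440 as deposited, would not reach its run if the builds were the same.

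Over all 2229 matched member genes, GGAC stood within the first 50 transcribed bases in 21.8% (exact 95% interval 20.1 to 23.6), and in 19.7% of all 11786 protein-coding genes with a single start. On the other strand the reverse complement GTCC stood in 18.9% of member genes and 19.4% of all genes. GGAC was thus slightly more frequent in member genes than in all genes, whose share lay just below the interval, and GTCC slightly less. At 1 FPKM or more GGAC stood in 21.1% (19.2 to 23.0) of 1890 member genes and in 19.6% of 5926 genes. Among 361 matched genes with a member of 10-fold enrichment or more, the shares were 22.7% for GGAC and 16.9% for GTCC. The first transcribed base was A in 49.9% (47.6 to 52.2) of the 1890 matched member genes at 1 FPKM or more. It was A in 49.5% of 1122 such genes that had only single-block 5' UTR peaks, in 41.9% (39.8 to 44.0) of 2167 that had peaks but none in the 5' UTR, and in 39.5% of 747 without a listed peak. Genes with either kind of 5' UTR peak thus started with A more often than the other expressed genes in the table, while over all genes of the table, expressed or not, A was first in 51.5%. Among members whose span covered the assigned start, those of genes starting with A had a median fold enrichment of 4.59, against 4.88 for G and 4.76 for C.

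The input libraries carried myeloid progenitor transcripts. Of 6 markers on that list MPO, the granule peroxidase, had a mean of 56.2 FPKM, the stem cell factor receptor KIT 40.4 and CD34 14.8. RUNX1T1, a partner in this line's fusion, was at 4.21, CD33 at 1.48 and ELANE at 0.018. Of 6 lymphoid markers CD3D was at 32.1 and CD79A at 5.03 FPKM, the others were under 1, and CD2 was listed at 0 in all 3 libraries. Of 4 erythroid and megakaryocytic markers in the table the highest was ITGA2B at 1.48. Summed levels ranged over the libraries from 111 to 122 for the myeloid list, 35.0 to 40.9 for the lymphoid and 1.62 to 1.80 for the erythroid. The files gave no read counts, so the depth behind each peak is unknown. The peak lists gave 1 value per peak with no replicate values, so no comparison below has a spread between replicates of its own, and the exact intervals given cover counting error only.

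Most members crossed a single junction. Of the 5502 peaks, 3388 had 2 blocks, 1336 had 3, 539 had 4 and 147 had 5, and the remaining 92 had 6 to 13. The exonic length, which is the sum of a peak's blocks, had a median of 390 bases (quartiles 240 and 690), while the genomic span from first to last base had a median of 3406 bases (1092 and 11933). The 8810 gaps between blocks had a median of 1492 bases. A small part of them, 342 gaps (3.88%), were under 60 bases, which is short for a human intron, and 163 members (2.96%) had no longer gap than that. In 52 members a block was 1 base long.

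Most members spanned the start of the transcript that the authors assigned. That start lay within the genomic span, gaps included, of 4724 members (85.9%), 68.4% of single-block 5' UTR peaks and 31.5% of all listed peaks. These 3 groups had median spans of 3406, 240 and 479 bases, and a longer span can hold a start more easily. Whether an exon block covered the start was not tested, and a covered start here means one within the span. The edge nearest the start coincided with it exactly in 1192 members and reached further upstream in 3532. The 5'-most block had a median length of 121 bases and made up a median of 35.6% of the exonic length, so most of a typical member lay beyond the first block. The annotation says only that the peak was placed in a 5' UTR, and long members can reach into coding exons. Assigned genes were protein-coding for 5197 members and of another kind for 91, and the symbols of 214 were not matched in RefSeq.

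The member with the most blocks was in TXNDC9, a thioredoxin-domain protein that binds the chaperonin CCT, with 13 blocks and 2154 exonic bases at chromosome 2:99337371-99379331 and a fold enrichment of 4.62. The PHF23 and CLSPN members had 11 blocks each, with 40.1-fold and 5.28-fold enrichment; CLSPN encodes claspin, an adaptor of the replication checkpoint. RAB8B, a small GTPase of vesicle traffic, also had 11 blocks (6.29-fold), and RHEX had 10 (9.67-fold). The longest spans belonged to XKR9, RPA3, FAM189A1, ROBO1 and MYRFL, of which XKR9 and MYRFL were at no more than 0.104 FPKM in any input library. RPA3, a subunit of the single-strand DNA binding protein RPA, was at 4.89, 5.46 and 4.57 FPKM and was the highest of these 5.

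The fold enrichment, IP over input as the authors gave it for each peak, had a median of 4.84 among members (quartiles 2.90 and 7.72, highest 252). The median was 3.82 for the 4361 single-block 5' UTR peaks, 5.24 for junction-spanning 3' UTR peaks, 4.88 for junction-spanning exon peaks and 4.53 over all peaks. The authors' FDR was under 0.05 for 93.7% of members, beside 87.4% of all listed peaks. An enrichment of 10 or more was reached by 850 members (15.4%) and by 13.5% of all peaks. Members were thus more enriched than single-block peaks of the same region by median, with quartiles that overlapped widely; no test between the classes was made, since peaks are not replicates.

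**Figure D1:**
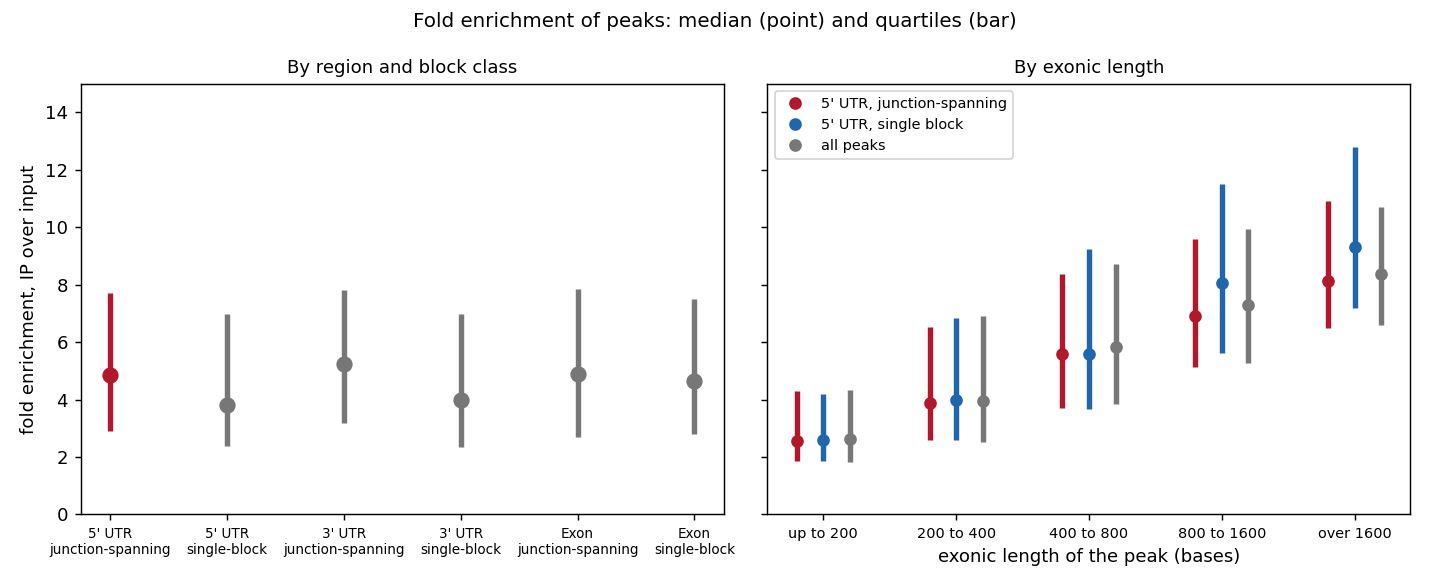
Fold enrichment (IP over input, linear axis from 0) of m6A peaks, with points at the median and bars from the lower to the upper quartile; left, by annotated region and block class, right, by exonic length in bases for junction-spanning 5' UTR peaks (red), single-block 5' UTR peaks (blue) and all peaks (grey). The red point on the left is at 4.84 and the single-block point at 3.82, while on the right the red medians climb from 2.56 to 8.13 with length and stay beside the blue ones up to 800 bases.

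At equal length the medians of the 2 classes were close, or lower in members. Members of up to 200 exonic bases had a median enrichment of 2.56 and single-block 5' UTR peaks of that length 2.58. The pair of medians was 3.88 and 3.99 at 200 to 400 bases and 5.58 and 5.59 at 400 to 800 bases. At 800 to 1600 bases members were lower, 6.91 against 8.07, and above 1600 bases 8.13 against 9.30. Across the 5502 members the rank correlation of exonic length with enrichment was 0.48, and it was 0.50 over all 42634 peaks. Peaks share libraries and a caller, and longer peaks may also rest on more reads, so this is a description of the list.

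The number of blocks added little at a given length. Median enrichment went from 4.62 with 2 blocks to 5.27 with 3, 5.52 with 4 and 6.21 with 5. Within 200 to 400 bases, however, it was 3.92 with 2 blocks and 3.82 with 3 or more, and within 800 to 1600 bases 7.37 and 6.60. The 271 members with 2 blocks of which one was under 10 bases, just past the condition of 2 blocks, had a median of 3.56, close to the 3.82 of single-block peaks just outside it. Members that covered the assigned start had a median of 4.89 and the others 4.40.

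Among listed members, enrichment was lower in abundant transcripts. The median was 6.52 for members of genes under 1 FPKM, 4.97 at 1 to 5 FPKM, 4.21 at 10 to 20 and 3.43 at 50 or more. The rank correlation of level and enrichment over 5415 members was -0.21. The authors' FDR was under 0.05 for 82.3% of members under 1 FPKM and 97.5% at 50 or more. The value 6.52 was also that of weak peaks such as the CTPS1 member (log10 FDR -0.471). Whether low coverage shaped these ratios was not tested. A member was listed in 3556 of the 12612 genes at 1 FPKM or more (28.2%, exact 95% interval 27.4 to 29.0). That share grew from 14.4% in the lowest decile of expressed genes to 37.1% in the ninth and was 32.3% in the highest. Expressed genes with a member had a median of 7.25, 7.41 and 7.24 FPKM in the 3 input libraries, and other expressed genes 4.60, 4.76 and 4.57. The 3 libraries therefore gave one order, with member genes above the others in each.

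The most enriched members in genes at 5 FPKM or more came from genes of varied function. PLEKHA2, a pleckstrin-homology adaptor that binds a phosphoinositide, was at 16.7, 17.0 and 17.2 FPKM in the 3 input libraries and its member had a fold enrichment of 175. ZNF175, a zinc finger protein, was at 7.31, 6.23 and 6.42 FPKM with a member of 162-fold. CAB39, the scaffold of the LKB1 kinase complex, was at 11.4, 11.1 and 11.1 FPKM with 138-fold. Levels in these genes varied little between libraries.

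CPSF7 was at 32.3, 31.2 and 31.4 FPKM, the highest level of the 10, and its 3-block member of 329 exonic bases at chromosome 11:61429518-61429971 had a fold enrichment of 126. GNB1 was at 15.9, 15.6 and 16.0 FPKM, and its 117-fold member joined 6 blocks over a span of 65731 bases. MFSD10, a membrane transporter family protein, was at 10.6, 7.42 and 9.63 FPKM with 108-fold and was the most variable of these genes between libraries. The other members of this group were in FAM214A (103-fold), the homeobox gene SIX5 (97.0-fold), LARP1 (90.4-fold) and the zinc finger gene ZMYM3 (89.4-fold).

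LARP1 binds the 5' end of mRNAs that encode ribosomal proteins and other translation factors. Its member joined 4 blocks and 989 exonic bases at chromosome 5:154713083-154757185, in a gene at 19.0, 18.7 and 18.1 FPKM. Without the limit on level, HCN3, a cation channel gene at 4.31, 5.18 and 4.14 FPKM, had a member of 252-fold, and SLC15A3, at 0.534 to 0.841 FPKM, one of 184-fold; these were chosen after their values were seen.

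**Figure D2:**
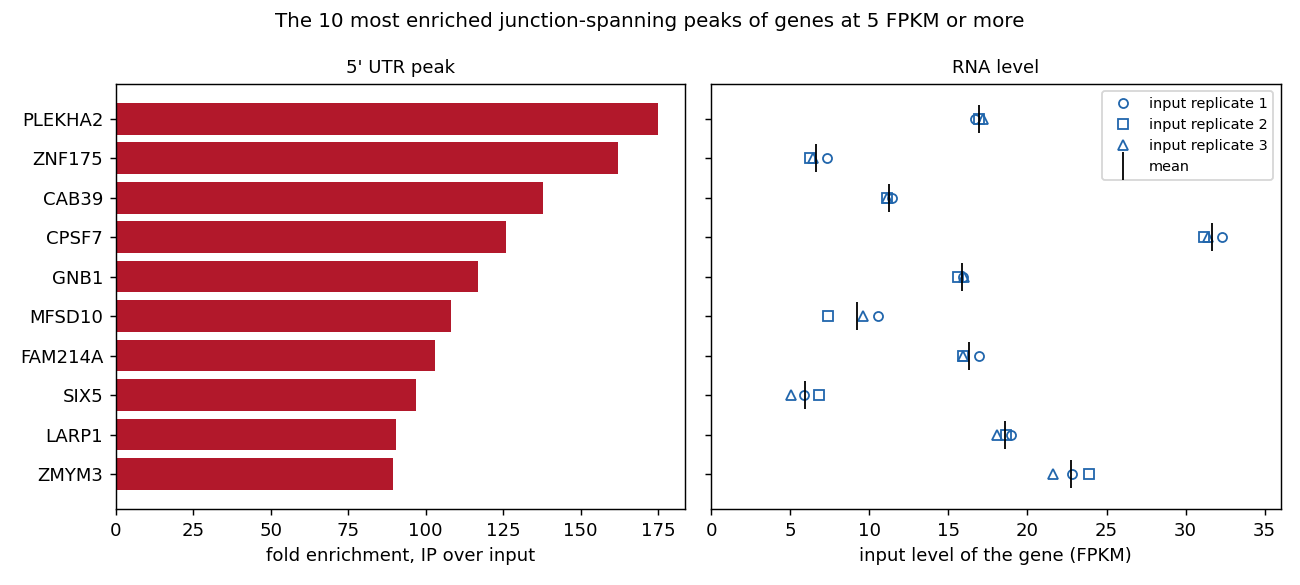
The 10 junction-spanning 5' UTR members with the highest fold enrichment in genes at 5 FPKM or more; left, fold enrichment (IP over input, bars from 0), right, the level of the gene in each of the 3 input libraries (FPKM, linear axis; symbols are replicates, ticks the mean). Bars run from 175 in PLEKHA2 to 89.4 in ZMYM3, and levels from about 6 to 32 FPKM do not follow the order of the bars.

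The most abundant genes with a member had modest enrichment. EEF1A1, the main elongation factor, was at 3417, 3226 and 3499.5 FPKM and its member of 121 exonic bases was enriched 5.28-fold. TMSB10, ACTG1 and RPS10, also among the most abundant, had members of 2.05-fold, 2.71-fold and 6.61-fold. EEF1A1, ACTG1 and RPS10 have many near-identical processed copies in the genome, so where their reads were placed is uncertain.

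Ribosomal protein genes seldom carried a member. A member was listed in 3 of 47 large subunit and 2 of 32 small subunit genes at 1 FPKM or more (6.38% and 6.25%), against 28.2% of all expressed genes. RPL36, at 354, 380 and 382 FPKM, had a member of 13.5-fold, and RPS29, at 43.4, 45.9 and 49.6 FPKM, one of 7.23-fold. These genes also have many processed copies, so the same uncertainty holds. Apoptosis genes carried one in 16 of 26 expressed genes (61.5%) and HIF targets in 13 of 25 (52.0%). HIF pathway regulators carried one in 5 of 10 (50.0%) and chromatin regulators in 12 of 26 (46.2%). Other lists lay on both sides of 28.2%. Expressed p53 targets were above it (8 of 21), and DNA damage response genes below it (4 of 25). Also below it were unfolded protein and integrated stress response (3 of 19), uORF-regulated stress (2 of 10) and TNF and NF-kB genes (5 of 22). The same held for respiratory chain (4 of 28) and 5' TOP translation factor genes (4 of 16). CASP9, the initiator caspase of the mitochondrial pathway, had a member of 24.2-fold, BCL2L11, which encodes BIM, one of 13.0-fold, and INSIG2, a HIF target that retains sterol regulators in the endoplasmic reticulum, one of 73.1-fold. RUNX1, a partner in this line's fusion, had a 5-block member of 2337 exonic bases with 14.0-fold enrichment at chromosome 21:34887029-35064734.

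In the differential list a peak was called where the authors' FDR was under 0.05, and the direction is that of the combined treatment over CoCl2 as the table's name gives it. Of 3095 members 2421 were called in the authors' deposited table (78.2%), beside 68.9% of all 19983 peaks tested. By the authors' deposited table, 879 were higher (28.4%, background 23.1%) and 1542 lower (49.8%, background 45.8%). The sources used here do not say how that table combined replicates. By median the members stood at a log2 fold change of -0.39 in the authors' deposited table, with -0.43 over all peaks and -0.24 for single-block 5' UTR peaks. Called changes reached at least 2-fold for 474 members in the authors' deposited table (15.3%; all peaks 17.2%), 200 higher and 274 lower.

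Direction followed the exonic length of the peak. Among called members of up to 200 bases in the authors' deposited table, 26 of 160 were lower (16.3%, exact 95% interval 10.9 to 22.9). The share lower in the authors' deposited table was 28.3% of 566 at 200 to 400 bases, 62.1% of 644 at 400 to 800 bases and 87.8% of 723 at 800 to 1600 bases. Above 1600 bases it was 97.9% (95.7 to 99.1), with 321 lower members and 7 higher ones in the authors' deposited table. As shares of all tested members, 40.4% were called higher up to 200 bases and 47.0% at 200 to 400 bases in the authors' deposited table. Above 1600 bases 95.5% of tested members were called lower. Called short members thus mostly rose, and long members almost all fell. Median log2 fold changes over these 5 lengths in the authors' deposited table were 0.63, 0.47, -0.37, -0.56 and -0.64.

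**Figure D3:**
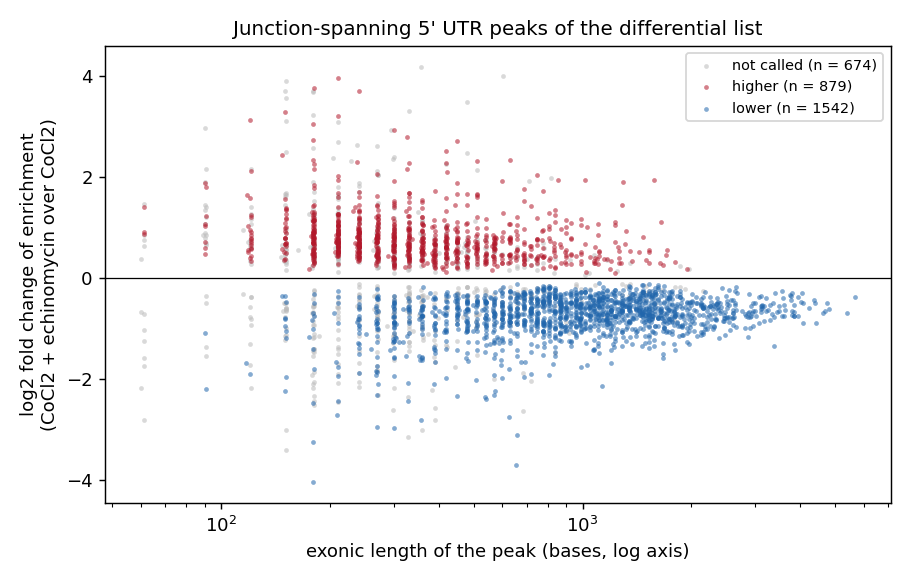
Junction-spanning 5' UTR peaks of the differential list, 1 point per peak; x axis, exonic length in bases (log axis), y axis, the authors' log2 fold change of enrichment, CoCl2 + echinomycin over CoCl2; red, higher (879), blue, lower (1542), grey, not called (674). Red points lie mostly under 800 bases, and beyond 1600 bases nearly every point is blue.

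The gradient was not a property of junction-spanning members alone. Single-block 5' UTR peaks in the authors' deposited table had shares lower of 19.7%, 32.7%, 59.6%, 84.8% and 95.5% over the same lengths. All peaks in the authors' deposited table had 26.9%, 41.7%, 68.7%, 89.6% and 96.7%. The exact intervals of members and single-block 5' UTR peaks overlapped at every length. They cover counting error only, so their overlap cannot show that the classes were equal. Pooled over lengths, 63.7% of called members and 54.0% of called single-block 5' UTR peaks were lower in the authors' deposited table. Members were also longer, with a median of 540 against 300 bases. Whether length accounts for the pooled difference was not tested. By the authors' deposited table the rank correlation of length and log2 fold change was -0.40 over 3095 members, -0.33 over 1890 single-block 5' UTR peaks and -0.28 over all peaks; peaks of 1 list share their libraries.

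**Figure D4:**
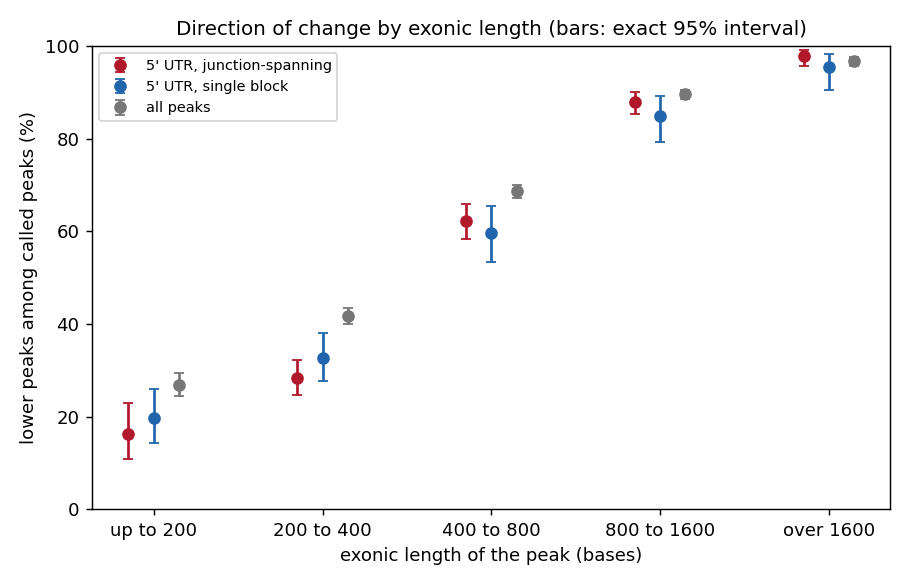
Percentage of called peaks (authors' FDR under 0.05) that were lower in CoCl2 + echinomycin than in CoCl2, by exonic length in bases; red, junction-spanning 5' UTR peaks, blue, single-block 5' UTR peaks, grey, all peaks; bars are exact 95% intervals (counting error only). Red climbs from 16.3% to 97.9%, and the red and blue bars overlap at each length.

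The level of the gene moved with direction too, in a smaller range. Called members in genes under 1 FPKM were lower in 83.1% of cases in the authors' deposited table, and those in genes at 50 FPKM or more in 36.7%. Level and length were nearly unrelated among members (rank correlation -0.05 over 3064). At 200 to 400 bases the share lower in the authors' deposited table was 41.9% under 5 FPKM, 24.8% at 5 to 20 and 17.6% at 20 or more, and at 800 to 1600 bases it was 93.0%, 85.5% and 78.1%. Up to 200 bases the shares over the 3 levels were 33.3%, 8.64% and 12.1%, and above 1600 bases 97.9%, 97.9% and 97.4%, in the authors' deposited table. The share thus grew with length at each level. In every length group up to 1600 bases it was highest under 5 FPKM, and above 1600 bases it hardly differed between levels.

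Block number went with direction less than length did. At 400 to 800 bases 65.4% of called 2-block members and 58.6% of those with 3 or more blocks were lower in the authors' deposited table, and above 1600 bases 98.4% and 97.6%. At 200 to 400 bases the shares in the authors' deposited table were 32.8% (28.0 to 37.8) and 19.6% (14.2 to 25.9), with counting intervals that did not overlap. These 2 groups also differed in median length (271 and 300 bases) and median level (6.64 and 8.43 FPKM), and peaks are not replicates. Members that did not cover the assigned start were lower in 78.2% of called cases in the authors' deposited table and those that covered it in 61.0%. At 400 to 800 bases the shares were 79.4% and 59.0%, and at 800 to 1600 bases 96.5% and 86.2%, in the authors' deposited table. At 200 to 400 bases they were 32.1% (20.3 to 46.0) and 27.8% (24.0 to 32.0), and up to 200 bases 22.2% and 15.0%, in the authors' deposited table, with intervals that overlapped.

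Of the 3095 members of the differential list, 2656 (85.8%) shared at least 1 exonic base with a member of the peak list in the same gene. The share was 96.7% for higher members and 81.5% for lower ones, and it was 26 of 51 for members below a log2 fold change of -2 against 54 of 58 at 2 or more, by the authors' deposited table. The peak list describes the combined treatment only, which is one arm of the differential list, so the 2 lists are not independent. Members with an overlapping enrichment under 3 were lower in 31.9% of called cases in the authors' deposited table, those with 3 to 5 in 50.4%, with 5 to 10 in 78.7% and with 10 or more in 74.1%. The median exonic lengths of these 4 groups were 271, 476, 900 and 777 bases, so enrichment and length moved together.

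The members named by log2 fold change are the called ones in genes at 1 FPKM or more, and the highest of them were short. BRD1, a bromodomain scaffold of a histone acetyltransferase complex, was at 12.8, 12.5 and 13.3 FPKM, and its 211-base member at chromosome 22:49824631-49825766 rose by 3.96 in the authors' deposited table (log10 FDR -1.88). FGFRL1, a decoy receptor for fibroblast growth factors, had a 181-base member that rose by 3.76 in the authors' deposited table (log10 FDR -1.32). KCNAB2, a potassium channel beta subunit at 6.78, 6.50 and 6.44 FPKM, had one that rose by 3.21 in the authors' deposited table. These FDR values were near the limit.

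Firmer calls among the 10 highest were those of PPM1M, PHF3 and POLR1E. PPM1M, a protein phosphatase, rose by 3.06 (log10 FDR -10.1) in the authors' deposited table. PHF3, which binds the tail of RNA polymerase II, had a 631-base member that rose by 2.35 (log10 FDR -27.3) in the authors' deposited table, in a gene at 4.05, 4.04 and 4.22 FPKM. POLR1E, a subunit of RNA polymerase I at 8.28, 9.17 and 9.54 FPKM, also rose by 2.35 in the authors' deposited table (log10 FDR -11.9). The others were LIPT1 (3.14), MAP3K20 (2.93), AC079779 (2.80) and ZNF143 (2.52) in the authors' deposited table; MAP3K20 encodes ZAK, a kinase of ribosome stress.

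The lowest members were also short or of middle length, up to 660 exonic bases. TOMM40L, a mitochondrial import channel relative, was at 3.42, 4.67 and 3.53 FPKM, and its 180-base member at chromosome 1:161226059-161226405 fell by 3.24 in the authors' deposited table (log10 FDR -2.84). MBD3, a subunit of the NuRD complex, had a 660-base member that fell by 3.11 in the authors' deposited table, although the overlapping member of the peak list still had a fold enrichment of 42.8. GNAS, the stimulatory G protein alpha subunit at 76.3, 77.6 and 78.1 FPKM, had a 627-base member that fell by 2.75 (log10 FDR -6.94) in the authors' deposited table. BTD, DENND5B, FAM228B, ITGB1, MCTP2, LIPT1 and SRR fell by 2.08 to 2.96 in the authors' deposited table. MBD3, BTD, DENND5B and ITGB1 had log10 FDR values of -1.71, -1.31, -1.96 and -1.55 in the authors' deposited table, near the limit. The 10 largest called changes of either sign in genes at 1 FPKM or more thus came from peaks of at most 660 bases. Long members that fell did so by less: above 1600 bases the median of the lower ones in the authors' deposited table was -0.65. Only 48.2% of members up to 200 bases were called, against 97.6% above 1600 bases, so short members that moved little are missing from this comparison. The members of TOMM40L, BTD, MCTP2 and SRR and the falling one of LIPT1 overlapped no member of the peak list, while the others of the 10 lowest did.

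Genes of the m6A machinery carried members of both directions. Of 11 writer genes 4 had a member in the peak list and 3 were tested, and in the authors' deposited table all 3 rose (all peaks 23.1%). Of all tested members, 40.4% up to 200 bases, 47.0% at 200 to 400 and 30.4% at 400 to 800 were called higher in the authors' deposited table. ZC3H13, a zinc finger subunit of the writer complex at 17.2, 16.2 and 16.9 FPKM, rose by 1.19 in the authors' deposited table over 749 bases and 6 blocks (log10 FDR -31.1). WTAP, the subunit that brings the catalytic pair to nuclear speckles, was at 16.4, 16.4 and 17.2 FPKM and rose by 0.98 in the authors' deposited table (log10 FDR -15.2). METTL16, a separate methyltransferase at 2.62, 2.59 and 2.53 FPKM, rose by 1.18 in the authors' deposited table (log10 FDR -1.77). METTL3 had a 479-base member of 2.53-fold in the peak list only.

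ALKBH5, the nuclear demethylase, was at 29.2, 26.6 and 28.1 FPKM and had a pair of members at overlapping positions. The longer, 953 bases at chromosome 17:18183078-18184592, fell by 1.09, and the 241-base one by 1.08 in the authors' deposited table. FTO, at 0.662 to 0.735 FPKM, had a 1.86-fold member that was not tested in the differential list. Among readers the 1795-base member of YTHDF3 fell by 0.66 and the 329-base member of YTHDF2 rose by 0.47 in the authors' deposited table. The IGF2BP3 member stood at 0.56 in the authors' deposited table and was not called. YTHDC1 had a 7-block member of 6.21-fold in the peak list.

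HIF pathway regulators fell in 5 of 6 tested members in the authors' deposited table (all peaks 45.8%), with a median of -0.32 beside -0.43 over all peaks. The tested members were long, with a median of 1438 bases, and of all tested members of 800 to 1600 bases 83.4% were called lower in the authors' deposited table. VHL, the ubiquitin ligase subunit that targets HIF, was at 39.6, 40.4 and 38.5 FPKM and its 1291-base member fell by 0.53 in the authors' deposited table. EGLN1, a prolyl hydroxylase that senses oxygen, fell by 0.24, and the acetyltransferase genes EP300 and CREBBP by 0.64 and 0.24 in the authors' deposited table. CITED2, which competes with HIF for those acetyltransferases, was at 31.3, 30.8 and 31.8 FPKM. Its 1580-base member at chromosome 6:139372462-139374270 fell by 0.41, and its 269-base member at chromosome 6:139374330-139374648 rose by 0.44 in the authors' deposited table.

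HIF target genes had 14 of 28 with a member. Of 12 tested members 4 rose, 2 fell and 6 were not called in the authors' deposited table, and the median was 0.44. The shares over all peaks were 23.1% higher and 45.8% lower in the authors' deposited table. TFRC, the transferrin receptor, was at 48.1, 48.0 and 47.8 FPKM and its 361-base member rose by 0.79 in the authors' deposited table (log10 FDR -52.1). The glucose transporter genes SLC2A3 and SLC2A1 rose by 0.68 and 0.66 and the demethylase gene KDM3A by 0.50 in the authors' deposited table, each with a member of at most 300 bases. VEGFA, the vascular growth factor at 13.1, 11.9 and 12.1 FPKM, had a 1199-base member that fell by 0.44 in the authors' deposited table, and that of DDIT4, an inhibitor of mTORC1, with 1459 bases, fell by 0.66 in the authors' deposited table. The 4 that rose were thus all shorter than the 2 that fell.

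**Figure D5:**
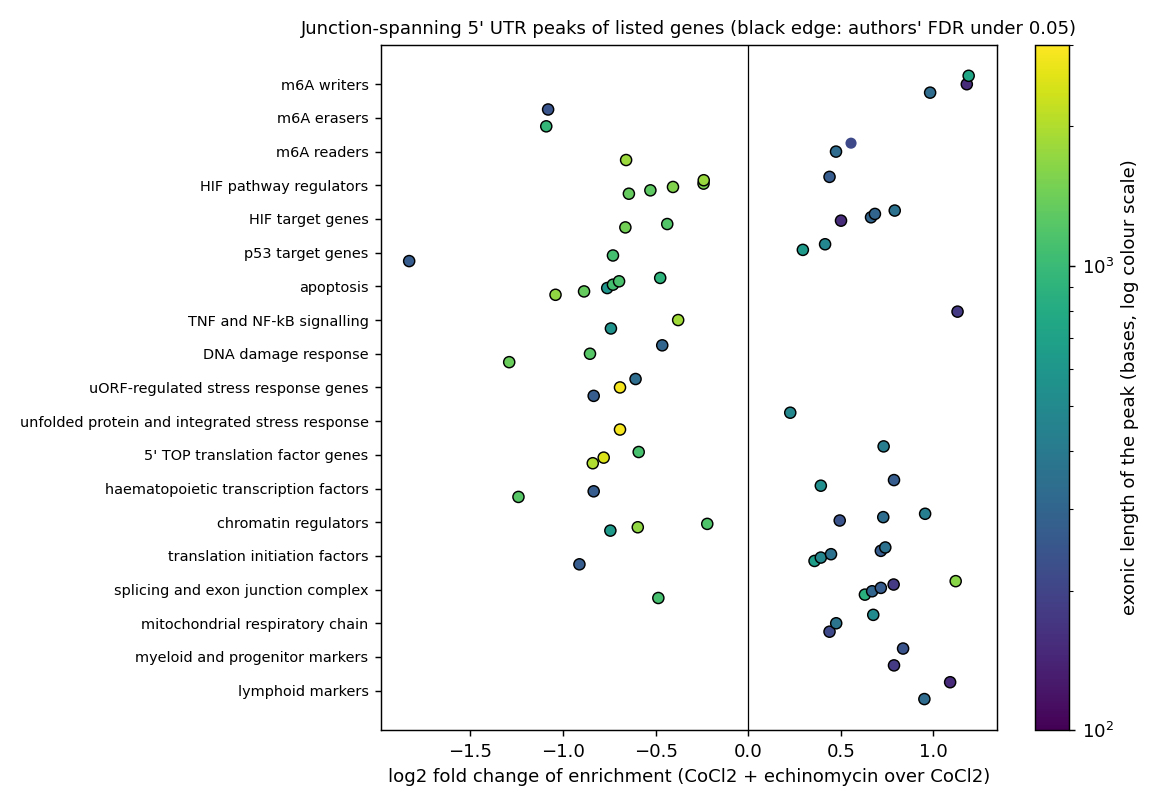
Junction-spanning 5' UTR members of listed genes in the differential list, up to 6 called members per list and, for writers, erasers, readers, HIF regulators and uORF-regulated genes, all of them; x axis, the authors' log2 fold change of enrichment, CoCl2 + echinomycin over CoCl2; colour, exonic length in bases (log colour scale); black edge, authors' FDR under 0.05. The 3 writers lie at 0.98 to 1.19 and the ALKBH5 pair near -1.1, and most yellow and green (long) points lie left of 0.

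Apoptosis genes had 17 tested members, of which 10 fell, 3 rose and 4 were not called in the authors' deposited table (median -0.47; all peaks 45.8% lower and 23.1% higher). FADD, the adaptor of death receptors, was at 16.4, 21.6 and 18.5 FPKM and its 1708-base member fell by 1.04 in the authors' deposited table. PMAIP1, which encodes NOXA, fell by 0.73, BCL2L1 by 0.89, MCL1 by 0.47 and the 2 members of BIRC2 by 0.70 and 0.76 in the authors' deposited table; the first promotes cell death and the others restrain it. Among p53 targets BBC3, which encodes PUMA, fell by 1.83 in the authors' deposited table (log10 FDR -1.72, near the limit) at 1.47, 1.87 and 1.96 FPKM. XPC, a damage recognition factor, rose by 0.42 and GADD45A by 0.29 in the authors' deposited table. The members tested in DNA damage response genes were 4, of which H2AX fell by 1.29, RNF168 by 0.85 and RNF8 by 0.46 in the authors' deposited table.

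Of 5 tested members in TNF and NF-kB genes 1 rose and 2 fell, and of 3 in uORF-regulated stress genes all fell, in the authors' deposited table (all peaks 23.1% higher and 45.8% lower). TRADD, an adaptor of the TNF receptor, had a 180-base member that rose by 1.13, and TAB2, a TAK1-binding protein at 18.4, 17.4 and 18.2 FPKM, had 2 members that fell by 0.38 and 0.74 in the authors' deposited table. One TAB2 member of the peak list, 599 bases in 4 blocks, had a fold enrichment of 54.0. Of the genes regulated through upstream open reading frames, PPP1R15B, a phosphatase subunit that restores translation after stress, fell by 0.69 over 2869 bases, CEBPB by 0.83 and IBTK by 0.61 in the authors' deposited table. HSP90B1, a chaperone of the endoplasmic reticulum at 77.5, 78.5 and 79.8 FPKM, rose by 0.23 in the authors' deposited table.

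Splicing factor and initiation factor genes had tested members of modest length, with medians of 480 and 359 bases. Of 7 tested splicing members 5 rose, 1 fell and 1 was not called in the authors' deposited table (all peaks 23.1% higher and 45.8% lower), with a median of 0.67. RNPS1, which joins the exon junction complex, rose by 1.12 over 1648 bases, an exception among long members, and SRSF3, SRSF6, SF3A3 and HNRNPU rose by 0.79, 0.72, 0.67 and 0.63 in the authors' deposited table. U2AF2, which binds the polypyrimidine tract, fell by 0.48 over 1104 bases in the authors' deposited table. Of 6 tested initiation factor members 5 rose in the authors' deposited table (all peaks 23.1%), among them EIF2S2 by 0.74 and EIF1AX by 0.72, and EIF5A fell by 0.91. Length matters to these counts: of all tested members 47.0% were called higher at 200 to 400 bases and 30.4% at 400 to 800 bases in the authors' deposited table. The respiratory chain members of NDUFB10 and NDUFA1 rose by 0.68 and 0.48 in the authors' deposited table.

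Translation factor genes with 5' TOP starts had 6 tested members, of which 1 rose and 3 fell in the authors' deposited table, near the shares over all peaks (23.1% and 45.8%). RACK1, a ribosome-bound scaffold at 277, 269 and 291 FPKM, had a 2458-base member that fell by 0.78, EEF1D had 2 members that fell by 0.84 and 0.59, and NACA rose by 0.73 in the authors' deposited table. Among chromatin regulators CHD4, the NuRD remodeller, had 2 members that rose by 0.96 and 0.73, while EED fell by 0.74 and ARID1A by 0.60 in the authors' deposited table. KLF6, a zinc finger transcription factor, fell by 1.24 over 1229 bases in the authors' deposited table, and FLI1 and CBFB rose by 0.39 and 0.79. Of myeloid markers CTSG rose by 0.84 and CSF3R by 0.79, and the lymphoid marker CD79A rose by 1.09 in the authors' deposited table.

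Member and 3' UTR peak were the more enriched one about equally often, and single genes differed widely. Of 4445 member genes 2957 also had a 3' UTR peak, and the member and the 3' UTR peak with the lowest p were compared. The member had the higher fold enrichment in 1460 of these genes and the lower in 1484, and the median ratio was 0.995 (quartiles 0.568 and 1.86). Length again went with the order. Where the member was the longer of the pair it had the higher enrichment in 896 of 1232 genes, and where it was the shorter in 541 of 1681.

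The pair could move in opposite directions within a gene. Of 893 genes with both peaks called, both were lower in 443 and both higher in 146 in the authors' deposited table. The member rose and the 3' UTR peak fell in 186, and the reverse held in 118, in the authors' deposited table. In 250 of these 304 genes the rising peak was the shorter one. NRDC, a metalloprotease gene at 21.0, 19.4 and 20.2 FPKM, had a 690-base member that fell by 0.52 and a 150-base 3' UTR peak that rose by 3.29 in the authors' deposited table. PPM1M was the reverse, with a member that rose by 3.06 and a 3' UTR peak that fell by 0.87 in the authors' deposited table. The largest opposite pair was that of CYP27B1, the vitamin D activating enzyme at 0.580, 0.530 and 0.784 FPKM, at 1.53 for the member and -2.56 for the 3' UTR peak in the authors' deposited table. FAM126A, TBC1D30 and DSE were the others of the 6 genes named for such pairs. In DSE the 3' UTR peak, at chromosome 6:116275693-116275902, lay within the span of the member, 116273568-116279887. Gene and region of both peaks are the authors' assignment, and whether a pair lay on 1 transcript was not tested.

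Members of a gene also split. Of 254 genes with 2 or more called members, 60 had members in both directions in the authors' deposited table, and in 52 of them the rising members were the shorter by median length. LIPT1, a lipoyltransferase gene at 1.51, 0.979 and 0.811 FPKM, had a 120-base member at chromosome 2:99155427-99156302 that rose by 3.14 and a 91-base member at chromosome 2:99155015-99155127 that fell by 2.18 in the authors' deposited table. Their log10 FDR values were -1.76 and -2.13 in the authors' deposited table. Members can overlap: 410 of the 3095 shared exonic bases with another member, and 12 overlapping pairs were called in opposite directions in the authors' deposited table.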

How the data were processed

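Kasumi-1 poly(A) RNA was fragmented and precipitated with an anti-m6A antibody, per the labels' protocols, and the submitters' processing notes name fastp, HISAT2, HOMER and ChIPseeker without versions or roles. The peak list gives fold enrichment, a ratio of IP over input per peak, as deposited by the authors. It gives the p-value of each peak and the log10 of p and FDR, used here as scores, per the file headers. The differential list gives the log2 fold change and p-value between conditions as the authors deposited them. Block number, span and distance to the transcript start are other columns deposited by the authors. The expression table gives FPKM as the authors deposited them; 3 input columns were used and 6 other columns of per-sample values were not. The sources used here give no peak caller, genome build, annotation release or way of pooling replicates.

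Members were found by exact match of the annotation and by counting block sizes. Exonic length is the sum of blocks; peaks were grouped at 200, 400, 800 and 1600 bases, each upper limit included. Expressed genes had a mean FPKM of at least 1 over the input libraries. Shares have exact Clopper-Pearson 95% intervals. Overlap needed at least 1 shared exonic base on blocks, and log2 values of FPKM used a pseudocount of 1. Every count of calls used the authors' FDR under 0.05, so no new test was run. Members and the 22 gene lists were chosen with earlier results of these data known.

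Named genes were the 10 members of highest fold enrichment at 5 FPKM or more, the 10 highest and 10 lowest log2 fold changes among called members at 1 FPKM or more, the 5 with most blocks, the 5 longest spans and the 5 most abundant genes. They also included up to 6 called members per list by lowest p, all members of 5 lists (writers, erasers, readers, HIF regulators, uORF-regulated genes), and 6 genes with opposite 3' UTR changes; a few genes of this rule are not reported here. Sequences came from RefSeq tables, and none of chromosome 8 was printed. The counting was checked on simulated data. Tools were matplotlib 3.10.9, scipy 1.17.1, pandas 2.3.3 and numpy 2.4.6 under Python 3.11.15. Alternatives were other block, gap, FDR, fold, level, pseudocount and window limits and each input replicate left out.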

Additional observations from a re-analysis of the deposited data

How the results depend on the processing

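Requiring 3 or more blocks left 2114 members, with a median fold enrichment of 5.44, 12.3% of expressed genes with a member, 1153 called members, 67.5% of them lower, and a median log2 fold change of -0.42. Limits on single peaks moved the share of expressed genes with a member to 27.1% (2 or more blocks of at least 10 bases), 27.4% (authors' FDR under 0.05) and 25.8% (fold enrichment of 2 or more, which put the median at 5.34). A level of 5 FPKM or more gave 34.6% of genes, 1512 called members, 56.4% lower and a median of -0.26. A change of 2-fold or more left 474 called members, 57.8% lower.

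Alternatives added after seeing the data were a longest gap of at least 60 bases (27.4% of genes), a covered transcript start (25.4% of genes; 61.0% lower) and the 2 sides of 400 exonic bases. Up to 400 bases, 726 members were called, 25.6% of them lower, and the median log2 fold change turned to 0.51; above 400 bases 80.0% were lower and the median was -0.53. Among these alternatives this is the one direction that turned. By level of the gene, the median log2 fold change was also positive at 20 to 50 FPKM (0.26) and at 50 or more (0.34). It was negative in every lower level group, from -0.68 under 1 FPKM to -0.26 at 10 to 20. By overlapping enrichment it was 0.47 under 3 and 0.07 at 3 to 5, but -0.493 at 5 to 10 and -0.465 at 10 or more. The median log2 level of member genes was 3.05, 2.89 with a pseudocount of 0.1 and 2.67 with no limit on low values. GGAC stood in 21.8% of starts over 50 bases and 11.5% over 30. Leaving out each input library gave shares of 28.1% to 28.4% and log2 levels of 3.04 to 3.06. No paired analysis was possible because the peak and differential lists hold no values per replicate.

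The depth behind peaks is unknown, and no error between replicates can be given for any enrichment or change. The share of peaks called grows with exonic length (from 48.2% to 97.6% of members), so short members that moved little are counted as not called. The direction of change rests on the name of the differential list.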

Other observations

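Some members lay in genes whose best-known transcript has a single exon. CEBPB, an intronless transcription factor gene, had a 2-block member of 269 exonic bases with a gap of 982 bases at chromosome 20:50190248-50191498. H2AX, which encodes the histone variant phosphorylated at DNA breaks, had one of 1373 bases with a gap of 198 bases at chromosome 11:119093879-119095449. Both were chosen after their values were seen, and the cause of the gaps was not tested.

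In overlapping pairs called in opposite directions the shared bases were few to many. POC1B, a centriole protein gene, had members of 2362 and 629 exonic bases that shared 218 bases and stood at log2 fold changes of -0.50 and 0.73 in the authors' deposited table. UBE2D3, a ubiquitin-conjugating enzyme gene, had members of 930 and 677 bases sharing 105, at 0.78 and -1.65 in the authors' deposited table. SIAH2, a ubiquitin ligase that acts on HIF prolyl hydroxylases, had a 1459-base member at -0.69 and a 121-base member at 0.91 in the authors' deposited table, with 63 bases in common. The call of the 121-base member was near the limit (log10 FDR -1.38 in the authors' deposited table). ACIN1, an RNA-binding protein of the splicing machinery, had members of 690 and 1077 bases at 0.67 and -0.54 in the authors' deposited table. In GLA and HNRNPH2, neighbouring genes, members sharing 362 bases stood at 0.31 and -0.48 in the authors' deposited table. These pairs were picked after their values were seen.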
